A study of Homo sapiens with 104 samples.

Results

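TK6 is a human B-lymphoblastoid cell line that grows in suspension, and here it served as the line that lacks the repair protein MGMT but carries out mismatch repair. Its samples were chosen by title: 2 arrays of untreated cells (replicates 1 and 2) and 2 arrays of cells exposed to MNNG (replicates 1 and 2), 4 arrays of a series of 52 groups with 2 arrays each. The series measured RNA on Affymetrix arrays in 26 lymphoblastoid lines, each untreated and after MNNG in duplicate, and was set up to examine expression and killing by that agent. All cells were harvested from cultures in mid log phase, and by their labels the 2 TK6 groups differ in the exposure to MNNG alone. The labels give neither the dose of MNNG nor the time from exposure to harvest, and do not say whether duplicates came from separate cultures, so p-values may measure technical spread alone. The other groups used below are MT1, a derivative of TK6 that is deficient in mismatch repair, and the 24 numbered panel lines, both untreated and after MNNG. TK6 is 1 line, so no result below says how other lines with the same repair status respond.

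MNNG is a methylating agent, and among its products is a guanine methylated on oxygen. MGMT takes the methyl group off this base in a single step. Where MGMT is absent the base stays in the DNA, pairs with thymine during replication, and is bound by the mismatch repair proteins, which leads to strand breaks, checkpoint arrest and cell death. Cells that lack both MGMT and mismatch repair tolerate the lesion. Damage signalling in lymphoid cells turns on genes for cell-cycle arrest, apoptosis, repair and feedback control, and it can also engage NF-kB.

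All values below are levels on a log2 scale, the log2 of the intensity plus 16 after quantile normalisation, on which 5 is the bottom. A change is the mean of the MNNG arrays minus the mean of the untreated arrays (n = 2 each) with its standard error after ±, and a gene is called where limma's adjusted p is below 0.05 over 13842 genes. Where the lower of the group means is under 5.5, the true change may be larger than the value given, which is then only a bound. Each gene is represented by its probe set with the highest mean level. Where the mean of all its probe sets moved a called change by over 1.5 times, that value stands beside it. That mean also counts dim probe sets that hardly changed, which can make it smaller. In ANKRD37, ASNS, SUSD3 and P4HA1 the only other probe set lay below 5.5 in both groups. The smaller value there does not show a second, well-measured change. In CASP2 and BCL2L11 all other probe sets lay above 5.5, so this does not hold for every gene. In the series, 22 MNNG arrays were set aside because their cre control signals, from a transcript added to each sample, lay far from those of the other arrays; 0 of them are TK6 arrays. Median intensity was 29.0 and 26.8 in the untreated TK6 arrays and 39.4 and 29.8 in the MNNG arrays. The number of arrays limits the precision of every value. Duplicates correlated at 0.983 untreated and at 0.988 after MNNG, against 0.933 to 0.937 between untreated and MNNG arrays. The probe sets at the 3′ and 5′ ends of ACTB, a measure of RNA integrity, differed by 0.34 and 0.19 untreated and by 0.32 and 0.46 after MNNG.

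The levels of genes behind the labels were looked at. RNA of MSH6 cannot check the mismatch repair label, since it lay at 9.35 in untreated MT1, which is deficient in that repair. The probe set for MGMT stood at 5.21 and 5.19 untreated and 5.15 and 5.17 after MNNG, at the bottom of the scale in all 4 arrays. MSH6, a mismatch recognition subunit, was well measured at 9.41 and 9.54 untreated and 9.18 and 9.33 after MNNG. Its fall (-0.22 ± 0.077, adjusted p = 0.021) lost its call in 8 alternative fits beside the one that keeps every array, with adjusted p-values from 0.0624 to 0.27, and moved to -0.41 with median-centring and to -0.14 without MNNG replicate 1. Another MSH6 probe set went from a mean of 8.74 to 8.19 (-0.55), a change that was not tested. The 19 B-lineage markers tested had a median level of 8.66 untreated, against 6.99 over all genes, but 3 had a group mean below 5.5. Of the bright ones, MS4A1, the CD20 antigen, lay at 11.28 and 11.14 untreated and 11.73 and 11.89 after MNNG. CD79A, a chain of the B-cell receptor, lay at 10.13 and 10.45 untreated and 8.92 and 8.71 after MNNG. The T-cell chain CD3E (5.33 to 5.84 over the 4 arrays) and the monocyte antigen CD14 (5.28 to 5.73) lay near the bottom. Other markers of those types did not. The granule protein NKG7 of T and NK cells lay at 9.09 and 9.05 untreated, and the macrophage receptor CD163 at 7.93 and 8.05. The other CD163 probe sets lay near the bottom, at means of 5.25 and 5.15 untreated.

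MNNG changed a large share of the genes of TK6. Of 13842 genes tested, 5697 (41.2%) were called, 2996 up (21.6%) and 2701 down (19.5%). At 1.5-fold or more 1845 rose (13.3%) and 1527 fell (11.0%), and at 4-fold or more 137 rose and 44 fell. The median change of all genes was -0.029. Both MNNG arrays lay on the same side of both untreated arrays for 9419 genes (68.0%), so lack of overlap alone says little for a single gene. RNA of all cells in a culture is pooled on an array, so less RNA per cell and fewer cells with that RNA cannot be told apart. With the 22 arrays kept in, the median standard error of a TK6 change was 0.42 in place of 0.146 and 464 genes were called, 323 up and 141 down (69.6% up, against 52.6%). Of these, 460 were also called without the 22 arrays, 0 of them in the opposite direction; of 166 called genes named in the text 99 lost their call and 0 reversed. With median-centring of the arrays 45.3% of the called genes rose. Values as deposited had a median change of 0.12 over all genes, so changes on that scale are relative to it. The chart of calls by gene list sets the lists described below beside all genes tested. Each count of members called is to be read against 21.6% up and 19.5% down over all genes.

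**Figure D1:**
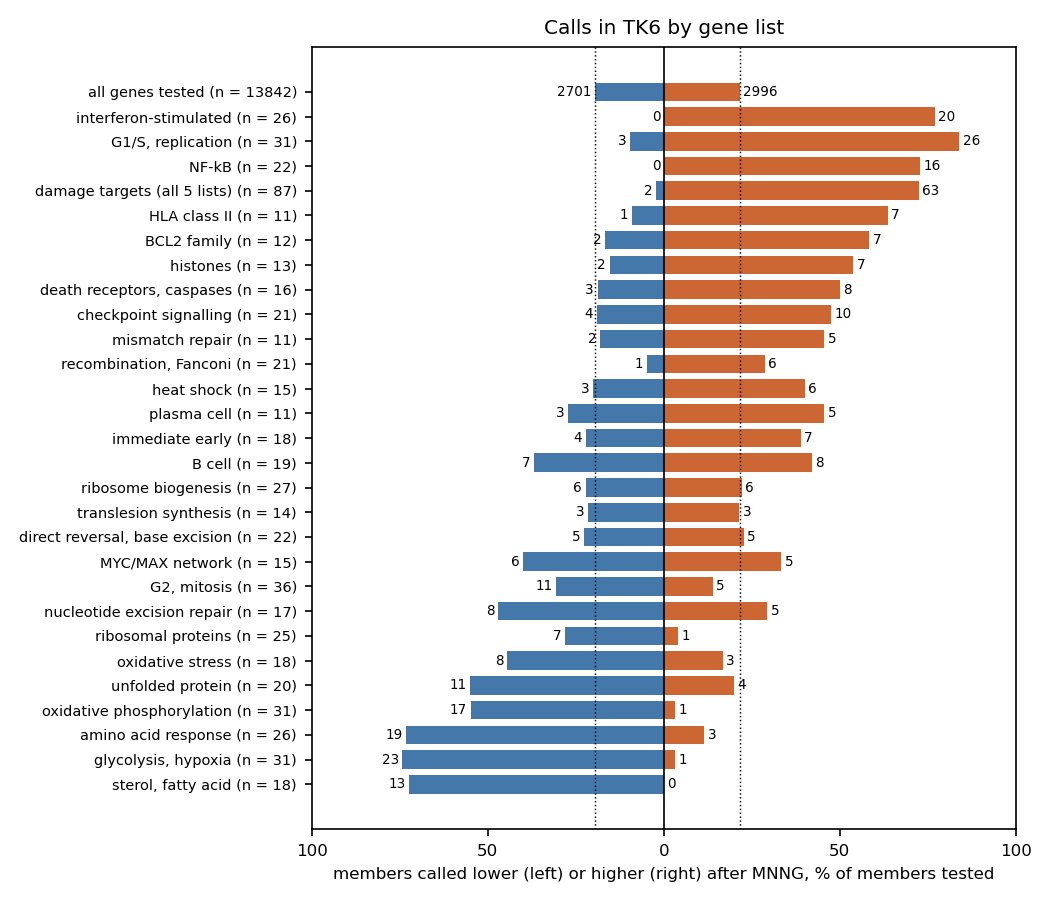
Share of the tested members of each gene list that were called higher (orange, right) or lower (blue, left) in TK6 after MNNG, in percent, with the number of genes at the end of each bar; dotted lines mark the shares over all 13842 genes tested. Interferon-stimulated, NF-kB, damage-target and G1/S lists extend to the right (20 of 26, 16 of 22, 63 of 87 and 26 of 31 members rose), and sterol, glycolysis and amino acid lists to the left (13 of 18, 23 of 31 and 19 of 26 fell).

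The largest rise was that of LCE1B, a protein of the skin's cornified envelope, which lay at 6.48 and 5.53 untreated and 12.82 and 12.81 after MNNG. Its intensity went from 61.4 and 19.8 to 7184 and 6938, and its change was 6.81 ± 0.36 (adjusted p = 2.79e-19). Another envelope precursor, IVL (involucrin), rose by 3.51 ± 0.086 from the bottom of the scale. TNFSF4, the ligand of the costimulatory receptor OX40, went from 5.24 and 5.44 to 10.16 and 10.26, a rise of 4.87 ± 0.12. CYP4F3, which inactivates leukotriene B, rose by 4.62 ± 0.12, and the actin-bundling protein FSCN1 by 4.27 ± 0.18. MMP9, a secreted gelatinase, lay at 6.82 and 6.78 untreated and 10.84 and 10.73 after MNNG (3.98 ± 0.15, adjusted p = 1.15e-23). HCAR3, a hydroxycarboxylic acid receptor, rose by 3.43 ± 0.14, the tubulin TUBB2A by 3.31 ± 0.094 and the cytokine IFNG by 3.28 ± 0.12. In each of these genes both MNNG arrays lay above both untreated arrays by more than 2 log2 units. They were picked for large changes without overlap, so this follows from the choice. The untreated mean was below 5.5 for TNFSF4, FSCN1, IVL and IFNG, so their rises are lower bounds. The long non-coding RNA LINC02097 rose by 3.62 ± 0.97 (adjusted p = 0.00218), with the largest standard error of the genes in this paragraph, and its change over the panel lines ran from -3.37 to 4.13.

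The largest fall was that of PFKFB4. This enzyme, which sets the level of an activator of glycolysis, fell from 9.65 and 9.63 to 5.69 and 5.34, near the bottom of the scale (-4.12 ± 0.13, or -2.31 over all its probe sets). The aldolase ALDOC changed by -3.40 ± 0.16 and ANKRD37 by -3.18 ± 0.11 (-1.59 over all its probe sets). CTH, which makes cysteine from cystathionine, changed by -3.10 ± 0.10, the asparagine synthetase ASNS by -3.07 ± 0.064 (-1.67 over all its probe sets), and PHGDH, the first enzyme of serine synthesis, by -2.64 ± 0.10. Among the others, the neuronal surface protein NRN1 lay at 9.31 and 9.36 untreated and 6.07 and 6.11 after MNNG (-3.24 ± 0.16), TEX19 changed by -2.75 ± 0.24, SUSD3 by -2.70 ± 0.11 (-1.41 over all its probe sets) and the secreted stanniocalcin STC2 by -2.69 ± 0.13. Both MNNG arrays lay below both untreated arrays in all of them, but this was fixed by the choice. The largest rises and falls were picked among called genes whose groups do not overlap.

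Targets of the damage response rose more often than genes at large. Over 5 lists with 87 genes tested, 63 rose, 2 fell and 22 did not pass, against 21.6% and 19.5% of all genes; the median change was 0.97 (all genes -0.029). Relative to the untreated mean, it was 1.06 in MNNG replicate 1 and 0.97 in MNNG replicate 2. The feedback regulators restrain or tune the response. Of the 11 members tested, 7 rose, 1 fell and 3 did not pass the test (median change 0.91). MDM2, a ubiquitin ligase, lay at 9.18 and 9.42 untreated and 12.16 and 12.33 after MNNG, a rise of 2.95 ± 0.15 (7.71-fold, adjusted p = 5.77e-20). TP53INP1, a nuclear stress protein, rose by 3.21 ± 0.15 (1.09 over all its probe sets), SERTAD1 by 1.99 ± 0.16 and the phosphatase PPM1D by 1.81 ± 0.17. The cyclin CCNG2 fell (-0.68 ± 0.16).

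Among genes of cell-cycle arrest, 12 of 13 rose and 0 fell (median change 1.17). CDKN1A, the inhibitor of cyclin-dependent kinases, lay at 9.50 and 9.61 untreated and 12.63 and 12.39 after MNNG (2.95 ± 0.082, 7.74-fold, adjusted p = 2.14e-28). The repressor E2F7 rose by 2.57 ± 0.088 (1.54 over all its probe sets), TRIM22 by 2.21 ± 0.054 and the sestrin SESN1 by 2.12 ± 0.11. GADD45A, a damage-inducible protein that binds PCNA, lay at 9.76 and 9.66 untreated and 11.21 and 11.43 after MNNG (1.60 ± 0.11, adjusted p = 1.09e-15). The transcription factor PRDM1, which is also a plasma cell factor, rose by 2.25 ± 0.10.

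Of 21 genes of apoptosis and related death, 16 rose and 0 fell (median 1.20). TP53I3, a quinone oxidoreductase, had one of the largest rises, at 6.73 and 6.79 untreated and 11.45 and 11.49 after MNNG (4.71 ± 0.18, 26.1-fold). APAF1, the scaffold of the apoptosome, rose by 2.01 ± 0.12 (0.78 over all its probe sets), TRIAP1 by 2.01 ± 0.096 and DRAM1, a lysosomal protein of autophagy, by 1.99 ± 0.080. The death receptor FAS was already bright and lay at 10.22 and 9.92 untreated and 11.22 and 11.32 after MNNG (1.20 ± 0.11, adjusted p = 7.15e-12). BAX, the pore-forming member of the BCL2 family, lay at 8.47 and 8.77 untreated and 8.16 and 8.60 after MNNG and did not pass (-0.24 ± 0.22, adjusted p = 0.418); its groups overlapped.

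Genes of repair and metabolism in the damage response rose in 18 of 24 cases and fell in 1 (median 1.09). XPC, which recognises distorted DNA in nucleotide excision repair, lay at 7.87 and 8.16 untreated and 10.27 and 10.11 after MNNG (2.17 ± 0.12, adjusted p = 1.06e-18), and its partner in that step DDB2 at 9.18 and 9.05 untreated and 10.19 and 10.13 after MNNG (1.05 ± 0.077). The sliding clamp PCNA lay at 11.14 and 10.94 untreated and 12.09 and 12.24 after MNNG (1.13 ± 0.11). TIGAR, a phosphatase that lowers glycolytic flux, rose by 2.48 ± 0.075, the ribonucleotide reductase subunit RRM2B by 2.31 ± 0.11, the lysosomal fucosidase FUCA1 by 2.34 ± 0.088 from the bottom of the scale (1.04 over all its probe sets, 1.51 with a pseudocount of 64) and the bypass polymerase POLH by 1.66 ± 0.12 (0.82 over all its probe sets). In all 7 of these genes, which were called up, the MNNG arrays lay above the untreated arrays. Over all genes the arrays lay apart, above or below, for 68.0%, so this adds little. Surface and secreted products rose in 10 of 18 cases and fell in 0 (median 0.63). Beside TNFSF4 these included the peptide transporter TAP1 (2.09 ± 0.081), the growth factor CSF1 (2.00 ± 0.20, 0.51 over all its probe sets), the lipid transporter ABCA12 (1.98 ± 0.14) and the stress cytokine GDF15 (1.82 ± 0.14, 0.70 over all its probe sets).

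**Figure D2:**
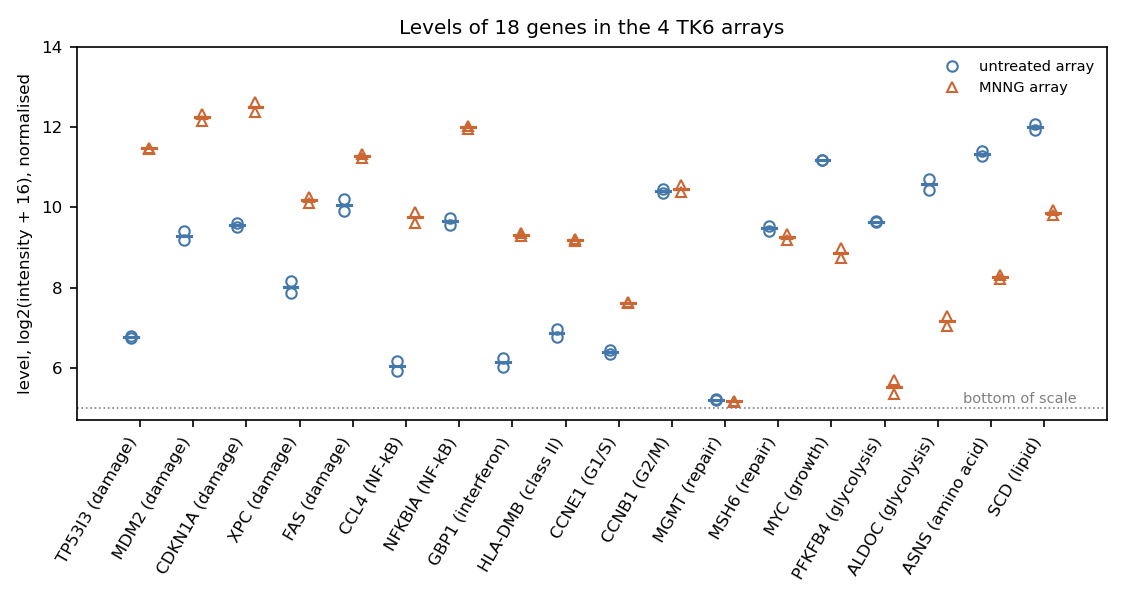
Level of 18 genes in each of the 4 TK6 arrays, as log2 of intensity plus 16 after normalisation (circles: 2 untreated arrays; triangles: 2 MNNG arrays; bars: group means; dotted line: bottom of the scale at 5). Damage, NF-kB, interferon, class II and G1/S genes lie higher after MNNG, MYC and the metabolic genes lower, MGMT lies at the bottom throughout, and CCNB1 overlaps.

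In the BCL2 family 7 of 12 members rose and 2 fell (median 0.35). The rises included both protective and killing members: BCL2A1, a survival factor, changed by 1.88 ± 0.076, BCL2L1, which encodes BCL-XL, by 1.30 ± 0.13 (0.59 over all its probe sets), and the pore former BAK1 by 0.70 ± 0.17. BCL2L11, the killing protein BIM, fell (-0.99 ± 0.18, -0.56 over all its probe sets), a call that ended with the probe set and filter chosen on the TK6 arrays (-0.79, adjusted p = 0.0752). Of 16 death receptor and caspase genes 8 rose and 3 fell (median 0.38). TNFSF10, the death ligand TRAIL, lay at 5.56 and 6.39 untreated and 9.28 and 9.46 after MNNG (3.40 ± 0.23, adjusted p = 9.47e-16), and CASP1, the inflammatory caspase, at 7.10 and 6.68 untreated and 9.43 and 9.58 after MNNG (2.61 ± 0.21). CASP6 rose by 0.93 ± 0.16, and CASP2 by 0.93 ± 0.11, but by only 0.072 (adjusted p = 0.725) over all its probe sets. The adaptor FADD, which links death receptors to caspases, fell (-0.73 ± 0.079, adjusted p = 2.55e-10).

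Checkpoint genes were mixed, with 10 of 21 up and 4 down. The phosphatase CDC25A rose by 1.35 ± 0.13 (0.87 over all its probe sets) and the kinase ATR by 0.85 ± 0.13 (0.49 over all its probe sets). The kinases CHEK1 (0.32 ± 0.18, adjusted p = 0.162) and ATM (0.096 ± 0.19, adjusted p = 0.744) did not pass. Another ATM probe set, brighter in the TK6 arrays, went from a mean of 7.80 to 8.47 (0.68), a change that was not tested. Repair pathways other than the damage targets showed no single direction. In direct reversal and base excision repair 5 of 22 rose and 5 fell, shares of 22.7% each beside 21.6% and 19.5% of all genes. The glycosylase TDG rose by 1.14 ± 0.13, the end processor APTX by 1.13 ± 0.099 (0.58 over all its probe sets), the flap nuclease FEN1 by 1.07 ± 0.056 and the uracil glycosylase UNG by 1.03 ± 0.086. The glycosylase NTHL1 fell from 7.51 and 7.45 to 6.21 and 6.14 (-1.30 ± 0.16), and PARP1, a sensor of strand breaks, fell by 0.54 ± 0.10. MPG, the glycosylase that removes other methylated bases, lay at 7.99 and 8.20 untreated and 7.75 and 7.48 after MNNG and did not pass (-0.48 ± 0.22, adjusted p = 0.0861), although it did with the replicate block (adjusted p = 0.0164). SPATC1L fell from 8.29 and 8.75 to 6.91 and 6.80 (-1.67 ± 0.23, adjusted p = 1.1e-07).

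Of 11 mismatch repair genes tested 5 rose (45.5%, against 21.6% of all genes) and 2 fell (18.2%, against 19.5%). The rises included 2 factors that also act in replication and recombination. They were the single-strand binding subunit RPA1 (0.90 ± 0.10, 0.52 over all its probe sets) and the exonuclease EXO1 (0.66 ± 0.096). In nucleotide excision repair 5 of 17 rose (29.4%) and 8 fell (47.1%). The falls included the damage-recognition partner RAD23B (-1.55 ± 0.16, -0.95 over all its probe sets), the helicase complex subunit GTF2H4 (-1.37 ± 0.13) and the nuclease subunit ERCC1 (-0.86 ± 0.14, -0.55 over all its probe sets), while the subunit GTF2H3 rose (1.17 ± 0.21). In recombination and the Fanconi pathway 6 of 21 rose (28.6%, not far from the 21.6% of all genes) and 1 fell (4.76%). RAD51C, a strand-exchange cofactor, lay at 8.62 and 8.43 untreated and 10.45 and 10.56 after MNNG (1.98 ± 0.11, adjusted p = 1.32e-18), and the helicase BRIP1 rose by 1.00 ± 0.11. In translesion synthesis 3 of 14 rose and 3 fell, 21.4% each way and so near the shares of all genes; the end-joining polymerase POLQ (0.88 ± 0.14) and the primase PRIMPOL (0.79 ± 0.13) were among the rises.

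Genes of the G1/S transition and of DNA replication rose in 26 of 31 cases and fell in 3 (median 0.65). The cyclins CCNE1 (1.23 ± 0.15, 0.56 over all its probe sets), CCNE2 (1.55 ± 0.16) and CCND3 (1.79 ± 0.13, 1.09 over all its probe sets) rose, as did UHRF1, which couples replication to DNA methylation (1.45 ± 0.098), the replication licensing factor CDC6 (0.87 ± 0.11) and the ribonucleotide reductase subunit RRM1 (1.02 ± 0.095). The factor E2F1 rose by 0.65 ± 0.17 (adjusted p = 0.00184), a call that ended on values as deposited and without untreated replicate 1 or MNNG replicate 1 (adjusted p = 0.0803, 0.0847 and 0.0553). The primase PRIM1 fell (-0.58 ± 0.11). CCNE1 lay at 6.43 and 6.36 untreated and 7.65 and 7.61 after MNNG, with no overlap.

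Promoter letters of 2 of these genes are shown because E2F factors bind the start regions of many G1/S genes. The stretches come from RefSeq (GRCh38.p14), run 5′ to 3′ on the gene's strand upstream of the most upstream listed start, and carry in capitals each match to TTTNNCGC or its reverse GCGNNAAA:
UHRF1 (chr19:4909421-4909500, plus strand): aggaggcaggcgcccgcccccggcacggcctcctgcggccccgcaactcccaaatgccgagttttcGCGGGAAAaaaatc
E2F1 (chr20:33686386-33686465, minus strand): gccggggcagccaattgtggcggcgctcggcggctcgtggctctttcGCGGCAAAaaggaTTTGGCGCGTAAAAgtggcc
In windows from 250 bases before to 50 after each listed start, 15 of the 27 G1/S genes with a promoter in the table (55.6%) held this motif on either strand, and 14 of the 22 that rose did. It was present in 8.23% of all 27305 genes with a promoter and in 12.2% of the 11079 that were also tested. In E2F1 a pair of its matches overlap. A match is a description of the letters, not of binding.

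Of 36 genes of G2 and mitosis 5 rose (13.9%, against 21.6% of all genes), 11 fell (30.6%, against 19.5%) and 20 did not pass (median -0.18). CCNB1, the mitotic cyclin, lay at 10.45 and 10.36 untreated and 10.38 and 10.55 after MNNG, with overlapping groups (0.060 ± 0.075, adjusted p = 0.578). Its other, dimmer probe set went from a mean of 8.23 to 8.65 (0.43), a change that was not tested. The kinases NEK2 (-1.07 ± 0.12), BUB1 (-0.95 ± 0.12) and AURKB (-0.69 ± 0.088) fell and the kinetochore motor CENPE rose (0.82 ± 0.14). PLK1 lay at 8.66 and 9.22 untreated and 8.49 and 8.26 after MNNG and did not pass (-0.57 ± 0.27, adjusted p = 0.0925), although it did with the replicate block (adjusted p = 0.0307) and without untreated replicate 1 (adjusted p = 0.0386). Of 13 histone genes 7 rose and 2 fell (median 0.62). H2BC12 lay at 7.85 and 8.02 untreated and 11.51 and 11.54 after MNNG, a rise of 3.58 ± 0.062 (12-fold, adjusted p = 2.61e-35). H2AC6 rose by 2.77 ± 0.15 and H2BC5 by 2.35 ± 0.11, and the variant H2AJ fell (-1.04 ± 0.14, -0.43 over all its probe sets). Histone genes are near-identical copies, and whether a probe set measures only the gene it is named for was not tested.

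Genes of inflammatory signalling rose. Of 22 NF-kB targets and components 16 rose and 0 fell (median 0.83), against 21.6% and 19.5% of all genes. The chemokine CCL4 lay at 5.92 and 6.18 untreated and 9.89 and 9.62 after MNNG (3.71 ± 0.13, 13-fold, adjusted p = 1.18e-24), and CCL22, which attracts T cells, rose by 2.89 ± 0.30. The signalling adaptor TRAF1 rose by 2.35 ± 0.25. NFKBIA, the inhibitor that NF-kB itself induces, lay at 9.74 and 9.57 untreated and 12.04 and 11.96 after MNNG (2.34 ± 0.13, 1.21 over all its probe sets). The subunit RELA lay at 8.34 and 8.88 untreated and 8.33 and 7.80 after MNNG and did not pass (-0.55 ± 0.29, adjusted p = 0.136), although it fell over the mean of all its probe sets (-0.62, adjusted p = 0.0279). Of 18 immediate early genes 7 rose (38.9%) and 4 fell (22.2%). The phosphatase DUSP5 (1.80 ± 0.28), JUNB (1.55 ± 0.18) and IER5 (1.54 ± 0.12) rose, EGR1 did not pass (0.55 ± 0.25, adjusted p = 0.0708; 0.0191 with the 4 TK6 arrays alone), and MYC, the growth regulator, fell from 11.18 and 11.17 to 8.98 and 8.73 (-2.32 ± 0.12, 5-fold, adjusted p = 1.11e-19).

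Of 26 interferon-stimulated genes 20 rose and 0 fell (median 1.13); 10 of the 26 had a group mean below 5.5. GBP1, a guanylate-binding protein of host defence, lay at 6.02 and 6.25 untreated and 9.29 and 9.35 after MNNG (3.19 ± 0.14, adjusted p = 3.2e-22). The ubiquitin-like modifier ISG15 lay at 7.51 and 7.60 untreated and 9.56 and 9.63 after MNNG (2.04 ± 0.061) and the chemokine CXCL10 at 5.86 and 5.79 untreated and 8.03 and 8.28 after MNNG (2.34 ± 0.11). CXCL9 rose by 2.87 ± 0.12 and IFI27 by 2.49 ± 0.13 (1.63 with a pseudocount of 64), both from the bottom of the scale, XAF1 by 2.48 ± 0.084 (1.32 over all its probe sets) and IRF9, a part of the interferon-activated complex, by 1.91 ± 0.088. IFIT1, which binds foreign RNA, rose by 1.84 ± 0.12 from the bottom (1.14 with a pseudocount of 64). Not all members of the list moved: the antiviral genes MX1 (5.31 to 5.48 over the 4 arrays) and RSAD2 (5.28 to 5.52) lay at the bottom of the scale in both groups. IFNG itself rose, as given above.

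The promoters of 3 interferon-stimulated genes and of NFKBIA are shown since these are textbook targets of interferon-activated factors and of NF-kB. Capitals mark, in the first 3, the interferon-stimulated response element (GAAA, any 2 bases, GAAA, or TTTC, any 2 bases, TTTC on the other strand) and, in NFKBIA, the NF-kB site (GGG, any 2 bases, TTTCC, or GGAAA, any 2 bases, CCC), with build and orientation as above:
GBP1 (chr1:89065291-89065370, minus strand): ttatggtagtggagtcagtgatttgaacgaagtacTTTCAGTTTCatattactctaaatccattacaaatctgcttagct
CXCL10 (chr4:76023668-76023747, minus strand): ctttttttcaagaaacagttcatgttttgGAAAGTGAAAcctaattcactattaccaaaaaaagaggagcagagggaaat
IFIT1 (chr10:89392485-89392564, plus strand): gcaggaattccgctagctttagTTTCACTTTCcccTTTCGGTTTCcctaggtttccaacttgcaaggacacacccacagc
NFKBIA (chr14:35404786-35404865, minus strand): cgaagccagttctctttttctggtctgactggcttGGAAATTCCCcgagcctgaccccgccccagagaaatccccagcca
The first motif was in the window of 15 of 19 interferon-stimulated genes (78.9%), against 4.38% of all genes with a promoter and 4.05% of those tested; of the 14 that rose, 10 held it. The second was in 8 of 18 NF-kB genes (44.4%), against 2.33% and 2.95%; of the 13 that rose, 5 held it. Interferon-stimulated genes that were not called, MX1 and RSAD2 among them, held the first motif too, and some uncalled NF-kB genes held the second. Within the lists a match thus did not set apart the genes that rose. Genes without a match are not thereby shown to lack a site.

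HLA class II genes, which present peptides to helper T cells, rose in 7 of 11 cases and fell in 1 (median 0.40). The rises were largest in the peptide-loading factors: HLA-DMB lay at 6.96 and 6.78 untreated and 9.15 and 9.20 after MNNG (2.31 ± 0.074, adjusted p = 1.95e-26), HLA-DMA rose by 1.33 ± 0.077, and the modulators HLA-DOB by 1.83 ± 0.093 (0.91 over all its probe sets, 1.16 with a pseudocount of 64) and HLA-DOA by 1.52 ± 0.095 (0.45 over all its probe sets). Cross-hybridisation among HLA genes was not tested.

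Genes of glycolysis and of the hypoxia response fell together. Of 31 tested, 23 fell and 1 rose (median -0.91). ALDOC lay at 10.44 and 10.71 untreated and 7.29 and 7.05 after MNNG (-3.40 ± 0.16, 10.6-fold). PDK1, which keeps pyruvate out of mitochondria, lay at 9.76 and 9.85 untreated and 7.04 and 7.14 after MNNG (-2.72 ± 0.10, adjusted p = 7.54e-24), and BNIP3, a mitophagy receptor, at 11.15 and 10.98 untreated and 8.14 and 8.04 after MNNG (-2.97 ± 0.10). The hexokinase HK2 changed by -2.54 ± 0.074 (-0.77 over all its probe sets), the prolyl hydroxylase P4HA1 by -2.50 ± 0.11 (-1.27 over all its probe sets) and the lactate dehydrogenase LDHA by -0.72 ± 0.031. HILPDA, a lipid droplet protein outside the list, changed by -2.60 ± 0.18. VEGFA, the angiogenic factor, fell by 0.77 ± 0.15. GAPDH (-0.098 ± 0.061, adjusted p = 0.212) and PKM (-0.0052 ± 0.31, adjusted p = 0.993) did not pass; the PKM values of 11.02 and 11.72 untreated and 11.81 and 10.93 after MNNG overlapped.

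Stretches before the starts of ALDOC and P4HA1 are shown for the core ACGTG (reverse CACGT) that hypoxia-inducible factors recognise, in capitals:
ALDOC (chr17:28576896-28576975, minus strand): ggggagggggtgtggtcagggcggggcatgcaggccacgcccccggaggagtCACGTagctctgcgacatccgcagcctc
P4HA1 (chr10:73096911-73096990, minus strand): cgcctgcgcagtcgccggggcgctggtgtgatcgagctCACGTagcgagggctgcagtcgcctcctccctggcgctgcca
This short core was in the window of 16 of 27 genes of the list (59.3%) and of 13 of the 20 that fell. It is common, in 24.9% of all genes with a promoter and 31.1% of those tested.

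The amino acid response fell in 19 of 26 cases and rose in 3 (median -0.90). ASNS lay at 11.40 and 11.27 untreated and 8.31 and 8.21 after MNNG (-3.07 ± 0.064, 8.42-fold, adjusted p = 1e-32). The alanyl-tRNA synthetase AARS1 lay at 11.60 and 11.68 untreated and 9.59 and 9.44 after MNNG (-2.12 ± 0.098), and the pseudokinase TRIB3 at 10.11 and 10.12 untreated and 8.10 and 8.06 after MNNG (-2.03 ± 0.085). The transcription factors of this response were lower too: ATF4 changed by -1.06 ± 0.12 and CEBPG by -1.39 ± 0.11; with the 22 arrays kept in the change of CEBPG was -0.68. Of the members that rose, the tryptophanyl-tRNA synthetase WARS1 (1.46 ± 0.083) is also induced by interferon. NUPR1 lay at 5.70 and 6.14 untreated and 8.99 and 6.55 after MNNG (1.84 ± 0.31); its change was 0.62 without MNNG replicate 1 and 3.06 without MNNG replicate 2, and its call ended with the 4 TK6 arrays alone (adjusted p = 0.0956) and with the TK6 and MT1 arrays alone (adjusted p = 0.0821).

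The amino acid response element TGATGNAA (reverse TTNCATCA) was searched in the same windows, and its match is in capitals in the 2 genes of the list with the largest falls that held it:
ASNS (chr7:97872433-97872512, minus strand): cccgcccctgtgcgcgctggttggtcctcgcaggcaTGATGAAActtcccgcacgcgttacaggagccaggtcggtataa
AARS1 (chr16:70289650-70289729, minus strand): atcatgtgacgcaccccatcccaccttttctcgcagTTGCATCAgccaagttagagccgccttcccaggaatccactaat
It was present in 8 of 22 genes of the list with a promoter (36.4%), against 4.46% of all genes and 3.05% of those tested. Of the 17 that fell, 7 held it.

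Lipid synthesis fell as well: of 18 sterol and fatty acid genes 13 fell and 0 rose (median -0.56). The desaturase SCD lay at 11.93 and 12.07 untreated and 9.93 and 9.80 after MNNG (-2.13 ± 0.11, adjusted p = 3.15e-19). SQLE, which makes squalene epoxide, changed by -1.51 ± 0.17 and HMGCS1, an early enzyme of the mevalonate pathway, by -1.04 ± 0.12 (-1.57 over all its probe sets). The desaturase FADS2 fell (-1.53 ± 0.46, adjusted p = 0.00598; -0.95 over all its probe sets), but not beyond the threshold without untreated replicate 2 (adjusted p = 0.136). Oxidative phosphorylation genes fell in 17 of 31 cases and rose in 1, by small amounts (median -0.19). The largest falls were in 2 subunits of respiratory complex III, UQCRC1 (-1.14 ± 0.17) and CYC1 (-1.04 ± 0.17).

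Among stress responses, 11 of 20 unfolded protein genes fell and 4 rose (median -0.29). The factor XBP1 fell (-1.18 ± 0.11, -0.59 over all its probe sets), while the chaperones CRELD2 (1.27 ± 0.081) and HYOU1 (1.15 ± 0.16) rose. Oxidative stress genes fell in 8 of 18 cases and rose in 3: the quinone reductase NQO1 lay at 10.69 and 11.01 untreated and 9.31 and 9.29 after MNNG (-1.55 ± 0.14), the heme oxygenase HMOX1 changed by -1.38 ± 0.15, the cystine transporter SLC7A11 by -0.89 ± 0.17, and the peroxidase GPX1 rose by 1.26 ± 0.11. Heat shock genes had 6 of 15 up (40%, against 21.6% of all genes) and 3 down (20%, against 19.5%). The co-chaperone DNAJA1 rose by 1.67 ± 0.090. The fall of HSPB1 (-1.69 ± 0.41) rests on 1 array: its level was 8.96 and 9.01 untreated and 5.98 and 8.60 after MNNG, the change was -0.38 without MNNG replicate 1 (adjusted p = 0.469) and -3.00 without MNNG replicate 2, and the call also ended with the 4 TK6 arrays alone (adjusted p = 0.144) and with the TK6 and MT1 arrays alone (adjusted p = 0.223).

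Ribosomal protein genes, the brightest list (median level 12.81 untreated), moved little: 1 of 25 rose, 7 fell and the median change was -0.051. The largest fall among them was that of RPL22 (-0.31 ± 0.055), which was -0.57 with median-centring. In ribosome biogenesis 6 of 27 rose and 6 fell, 22.2% each way and so near the shares of all genes; the nucleolar methyltransferase FBL lay at 11.61 and 11.59 untreated and 10.26 and 10.10 after MNNG (-1.42 ± 0.053, adjusted p = 3.98e-24) and the maturation factor NOB1 changed by -1.49 ± 0.14. In the MYC/MAX network 5 of 15 rose (33.3%, against 21.6% of all genes) and 6 fell (40%, against 19.5%). The nucleoside diphosphate kinase NME1, a known MYC target, rose by 1.64 ± 0.10 while MYC fell.

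B-cell genes changed in both directions, 8 of 19 up and 7 down (median 0.13; -0.022 without MNNG replicate 2). Parts of the B-cell receptor and its signalling fell: CD79A lay lower in both MNNG arrays, as given above (-1.48 ± 0.16, adjusted p = 3.43e-10), CD79B changed by -0.79 ± 0.13 (-0.32 over all its probe sets), the kinase BTK by -1.13 ± 0.10 and the lineage factor EBF1 by -1.03 ± 0.14. The kinase SYK (1.08 ± 0.13), the intracellular Fc receptor homologue FCRLA (1.79 ± 0.065) and, with calls that ended under median-centring, MS4A1 (0.60 ± 0.060; 0.29, adjusted p = 0.342) and the lineage factor PAX5 (0.66 ± 0.13; 0.44, adjusted p = 0.0963) rose. Over all probe sets MS4A1 changed by 0.35 and PAX5 by 0.31. Of 11 plasma cell genes 5 rose (45.5%, against 21.6% of all genes) and 3 fell (27.3%, against 19.5%). TNFRSF17, a receptor of plasma cells, lay at 5.82 and 6.01 untreated and 8.16 and 8.25 after MNNG (2.29 ± 0.13) and PRDM1 rose, while MZB1, a chaperone of antibody assembly, lay at 8.80 and 8.87 untreated and 6.21 and 6.03 after MNNG (-2.72 ± 0.14) and XBP1 fell.

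Markers of other cell types gave values beside these. The log2 of the summed intensity of 11 T and NK cell markers was 9.69 and 9.59 untreated and 9.69 and 9.32 after MNNG, with 1 member called up and 2 called down; for 10 myeloid markers it was 9.34 and 9.31 and then 9.77 and 9.42 (2 up, 1 down), and for 10 fibroblast and epithelial markers 10.55 and 10.28 and then 10.44 and 9.98 (1 up, 2 down). In the same order, 9.09%, 20% and 10% of these members were called up, against 21.6% of all genes. Called down were 18.2%, 10% and 20%, against 19.5%. The lists held 17, 16 and 16 markers with a probe set, and those not tested had been dropped by the filter for low levels. The summed intensity of 19 B-cell markers, on the same scale, was 13.70 and 13.72 and then 13.89 and 13.81. Among single markers of those types, the lytic protein PRF1 rose from 5.77 and 5.39 to 7.94 and 7.77 (2.28 ± 0.14), the integrin ITGAM rose by 2.27 ± 0.16 from the bottom of the scale (1.12 over all its probe sets, 1.5 with a pseudocount of 64), and the granule protein NKG7 fell (-1.16 ± 0.13). The fibronectin gene FN1 rose from 6.37 and 6.47 to 8.09 and 7.97 (1.61 ± 0.28, 0.52 over all its probe sets, 0.73 with a pseudocount of 64 and 0.88 with the 22 arrays kept in, where it was not called), and the Fc receptor chain FCER1G rose by 0.76 ± 0.14 (0.45 with a pseudocount of 64). CD163, a scavenger receptor of macrophages, lay at 7.93 and 8.05 untreated and 7.00 and 7.11 after MNNG and fell (-0.93 ± 0.37, adjusted p = 0.038; -0.27 over all its probe sets), a call that ended without any 1 of the 4 arrays (adjusted p = 0.0878 to 0.142). The other 3 falls were in GNLY (-0.33 ± 0.12, -0.17 over all its probe sets), COL1A2 (-0.39 ± 0.15) and CDH1 (-0.55 ± 0.12, -0.36 over all its probe sets). They lost their call on values as deposited and in other alternatives. CD3E and CD14 lay near the bottom of the scale in all 4 arrays, but other markers did not. The keratin KRT8 lay at 9.98 and 9.70 untreated and 9.43 and 8.95 after MNNG. The lysozyme LYZ lay at 7.79 and 7.80 untreated and 7.21 and 7.41 after MNNG, but its other probe set at means of 5.20 and 5.21. The part of other cell types in the results was not tested.

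The comparison with MT1 asks how the response differs in a derivative of TK6 without mismatch repair. MT1 kept 1 of its 2 MNNG arrays, which is assumed to vary like the other groups, so its changes have a larger standard error (median 0.178, against 0.146 in TK6). In MT1 493 genes were called, 326 up and 167 down, and the median absolute change was 0.162 there against 0.291 in TK6. The difference itself, the TK6 change minus the MT1 change, was called for 3415 genes (24.7%), 1682 with a more positive and 1733 with a more negative change in TK6. Of the 1385 genes called at 2-fold or more in TK6, 1218 also differed from MT1 in the same direction. The difference contains the TK6 change by which these genes were chosen, so this count is in part built in. With the 22 arrays kept in, 126 differences were called; of the 24 called differences named below, 11 kept their call, 12 lost it and that of MYC reversed. For damage targets the median change of the 87 genes was 0.97 in TK6 and 0.079 in MT1, and 62 of them differed, all with the larger change in TK6.

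CDKN1A changed by 0.087 ± 0.10 in MT1, a difference of 2.86 ± 0.13 (adjusted p = 1.84e-20). MDM2 changed by 0.50 ± 0.18 in MT1 (difference 2.44 ± 0.23), XPC by -0.20 ± 0.15 (difference 2.37 ± 0.19), GADD45A by 0.25 ± 0.14 (difference 1.36 ± 0.17) and FAS by -0.13 ± 0.14 (difference 1.33 ± 0.18). TP53I3 changed by 0.50 ± 0.22 in MT1 (difference 4.21 ± 0.28), TNFSF4 by 0.80 ± 0.15 (difference 4.07 ± 0.19) and TNFSF10 by 1.51 ± 0.29 (difference 1.88 ± 0.37, adjusted p = 0.000111); the last 2 were called up in MT1 too. LCE1B changed by 0.043 ± 0.44 in MT1, against 6.81 in TK6 (difference 6.77 ± 0.57). With the 22 arrays kept in, none of the differences of CDKN1A (4.61, adjusted p = 0.504), MDM2 (2.04, adjusted p = 0.219), XPC (2.00, adjusted p = 0.685), GADD45A (3.15, adjusted p = 0.414), FAS (0.71, adjusted p = 0.711) and TNFSF10 (1.45, adjusted p = 0.497) was called, while those of TP53I3, TNFSF4 and LCE1B were. Other large positive differences were in FSCN1 (4.30 ± 0.28), CYP4F3 (4.20 ± 0.19), LGALS9, which encodes galectin 9 (4.01 ± 0.43), DTNB-AS1 (3.80 ± 0.16) and MMP9 (3.48 ± 0.24); of these, FSCN1 and DTNB-AS1 were not called with the 22 arrays kept in.

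The large negative differences included glycolysis and hypoxia genes: PFKFB4 changed by -0.30 ± 0.15 in MT1 (difference -3.82 ± 0.20, adjusted p = 1.87e-18), ALDOC by -0.33 ± 0.19 (difference -3.08 ± 0.25), ANKRD37 by 0.0038 ± 0.14 (difference -3.18 ± 0.18) and BNIP3 by 0.13 ± 0.13 (difference -3.10 ± 0.17). Over all probe sets the difference was -2.16 in PFKFB4 and -1.51 in ANKRD37, and with the 22 arrays kept in those of ALDOC (adjusted p = 0.753) and ANKRD37 (adjusted p = 0.753) were not called. NRN1 (-3.36 ± 0.25), MZB1 (-2.89 ± 0.21) and POFUT4 (-2.88 ± 0.24) had differences of similar size. Several of these genes started lower in untreated MT1 than in untreated TK6: PFKFB4 (6.80 against 9.64), ALDOC (8.57 against 10.57), ANKRD37 (6.61 against 9.40) and BNIP3 (8.05 against 11.06). NRN1 lay at 5.27 in untreated MT1, near the bottom of the scale, with little room to fall. The part of the starting level in these differences was not tested. For LINC00486 the difference (-3.35 ± 1.14, adjusted p = 0.0254) came from a change of 3.26 ± 0.88 in MT1, with -0.094 ± 0.72 in TK6, and its call ended without untreated replicate 1 (adjusted p = 0.0537), without MNNG replicate 1 (adjusted p = 0.0649) and on values as deposited (adjusted p = 0.0636). Some changes were shared. The median change of the amino acid response was -0.50 in MT1 and -0.90 in TK6, and that of sterol and fatty acid genes -0.39 and -0.56. Over all genes the MT1 median was 0.033. In MT1 ASNS changed by -0.785 ± 0.078, AARS1 by -0.965 ± 0.12 and SCD by -0.52 ± 0.14. CCL4 rose there by 0.72 ± 0.16 and IFNG by 1.02 ± 0.15. Each of these genes moved further in TK6. MYC fell in both, by 0.94 ± 0.15 in MT1, and fell further in TK6 (difference -1.38 ± 0.19), but with the 22 arrays kept in that difference was 1.05 ± 2.02. HMOX1 changed by -0.95 ± 0.18 in MT1 and SLC7A11 by -0.82 ± 0.21; their differences of -0.43 ± 0.23 (adjusted p = 0.195) and -0.070 ± 0.28 (adjusted p = 0.914) were not called. CCNE1 changed by 0.52 ± 0.18 in MT1 (difference 0.71 ± 0.23, adjusted p = 0.02), a call that ended in 7 of the alternatives beside the one that keeps every array (1.43, adjusted p = 0.768), among them those over all its probe sets (0.25, adjusted p = 0.292), without untreated replicate 2 (adjusted p = 0.0551), without MNNG replicate 1 (adjusted p = 0.0516) and with the replicate block (adjusted p = 0.15). CCNB1 changed by 0.32 ± 0.092 (difference -0.26 ± 0.12, adjusted p = 0.106; adjusted p = 0.0438 without MNNG replicate 2). The plot of changes in both lines shows the tall, narrow spread of genes along the TK6 axis.

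**Figure D3:**
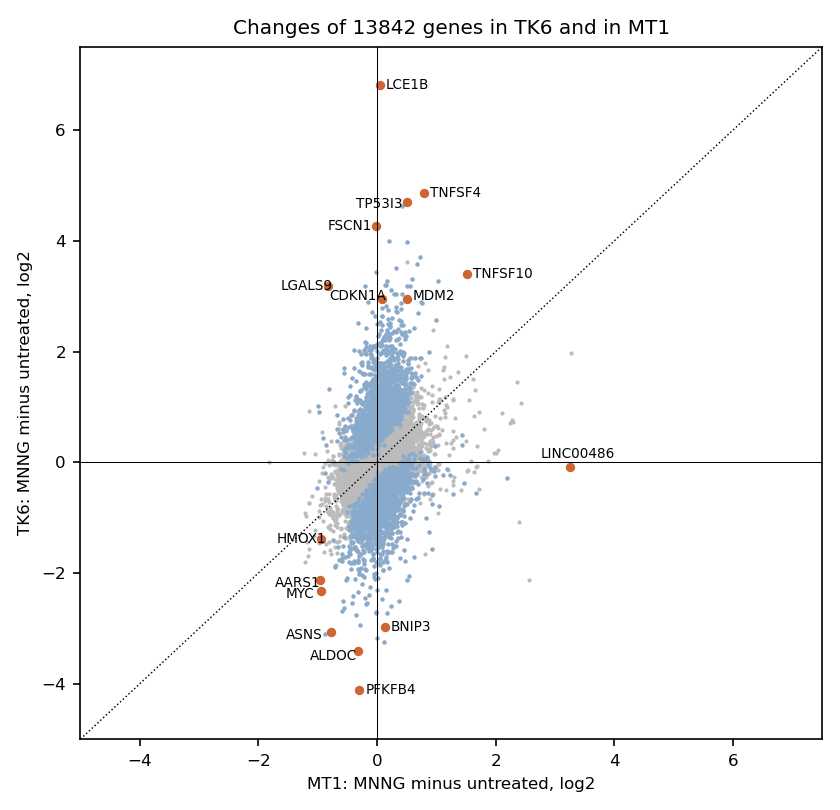
Log2 change after MNNG of each of 13842 genes in MT1 (horizontal) and in TK6 (vertical); blue points are the 3415 genes whose change differs between the lines, grey points the others, orange points named genes, and the dotted line marks equal changes. Called genes of TK6 such as LCE1B (6.81), CDKN1A (2.95) and PFKFB4 (-4.12) lie near 0 for MT1, TNFSF10 and MYC moved in both lines, and LINC00486 moved in MT1.

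Beside the panel, TK6 stood at one end. In 19 of the 24 numbered lines at least 1 MNNG array was kept, and their median absolute change ran from 0.091 to 0.205, lower than the 0.291 of TK6 in 19 of 19. The TK6 change lay above that of every panel line for 2795 genes (20.2%) and below that of every panel line for 3284 (23.7%). Among the 819 genes called up at 2-fold or more 800 lay above every panel line, and of the 566 called down at 2-fold or more 562 lay below the panel. Genes chosen for a large TK6 change are likely to lie outside the range of other lines, and no test was made since TK6 is 1 line. Of 87 damage targets 58 lay above every panel line, against 20.2% of all genes. MDM2 changed by 0.022 to 1.93 over the panel lines and TP53I3 by -0.16 to 1.88, against 2.95 and 4.71 in TK6. CDKN1A ranged over -0.23 to 1.29, and GADD45A over 0.041 to 1.52, which ends close to the 1.60 of TK6. GDF15 was within the panel's range of -0.25 to 2.05. MMP9 (-0.27 to 0.27), FSCN1 (-0.64 to 0.031), CCL4 (-0.43 to 0.64) and NFKBIA (-0.22 to 0.49) moved little in the panel. PFKFB4 (-1.73 to -0.25) and P4HA1 (-1.43 to -0.34) were lower after MNNG in all 19 panel lines, by less than in TK6, and CD79A ranged over -0.53 to 0.19.

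**Figure D4:**
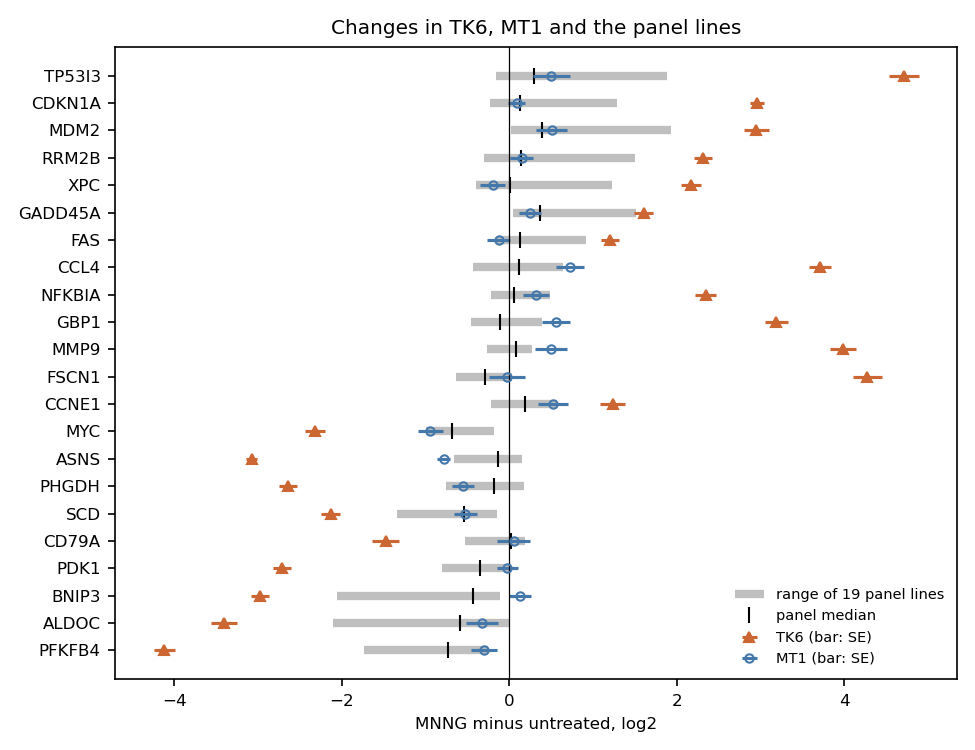
Log2 change after MNNG of 22 genes in TK6 (triangles), in MT1 (circles) and over 19 panel lines (grey bar: lowest to highest; tick: median); error bars are standard errors. For the 22 genes the TK6 value lies outside the panel's range, above it from TP53I3 to CCNE1 and below it from MYC to PFKFB4, and by the smallest margin for GADD45A.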

How the data were processed

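Arrays of 54675 probe sets (Affymetrix) measured RNA of 26 lines. The deposited values are linear intensity per probe set, made by the authors with PLIER (version not stated), per the submitters' processing notes, and run from 16 to 65535; no further step is stated. Groups come from the sample titles. The 22 MNNG arrays whose gap between a pair of cre probe sets was below -2 on the log2 scale were left out, which leaves 82. Values were turned to log2(intensity + 16) and quantile normalised. Of the probe sets, 41097 carry 1 gene symbol, 1801 several and 11777 none; only the first were used. Each gene was represented by its brightest probe set on average, and the lowest 30% of 19775 genes were dropped, leaving 13842. A cell-means model with 35 residual degrees of freedom was fitted in limma 3.58.1 (R 4.3.3) with a trend in the prior spread, and p-values were adjusted by Benjamini-Hochberg over all 13842 genes. Thresholds were an adjusted p of 0.05 and, where stated, a 1.5-fold change. The code was tested on simulated data.

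Members and gene lists were chosen with earlier results of these data known. Genes were named by a rule: the 15 largest rises and falls in TK6 among called genes whose groups do not overlap, up to 4 called genes a list, a set of repair, damage and cell-cycle genes, and the 8 largest differences from MT1 each way. A further 41 genes named in the text were picked after their values were seen. Some genes are not reported here. Panel values are descriptive. Promoter sequences and their coordinates come from RefSeq (GRCh38.p14). Same-numbered TK6 arrays deviated with a correlation of -0.188, and no label says that numbers pair cultures, so the main fit has no block. Alternatives changed the arrays, normalisation, pseudocount, filter, probe sets, prior, weights, block and replicates.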

Additional observations from a re-analysis of the deposited data

Results flagged for a closer look

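The difference between the TK6 and the MT1 response passed limma's test for 3415 genes, and the named ones are listed for this reason, as TK6 change minus MT1 change on the log2 scale. MT1 contributes 1 MNNG array to each value. The positive differences were 6.77 in LCE1B, 4.30 in FSCN1, 4.21 in TP53I3, 4.20 in CYP4F3, 4.07 in TNFSF4, 4.01 in LGALS9, 3.80 in DTNB-AS1 and 3.48 in MMP9. Those of the damage targets were 2.86 in CDKN1A, 2.44 in MDM2, 2.37 in XPC, 1.88 in TNFSF10, 1.36 in GADD45A and 1.33 in FAS, and that of the cyclin CCNE1 was 0.714. These 7 lost their call with the 22 arrays kept in, as did FSCN1, DTNB-AS1, ALDOC, ANKRD37 and LINC00486. The negative differences were -3.82 in PFKFB4, -3.36 in NRN1, -3.35 in LINC00486, -3.18 in ANKRD37, -3.10 in BNIP3, -3.08 in ALDOC, -2.89 in MZB1, -2.88 in POFUT4 and -1.38 in MYC. Untreated MT1 already lay lower than untreated TK6 in PFKFB4, ANKRD37, BNIP3 and ALDOC, and near the bottom of the scale in NRN1 (5.27).

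Probe sets outside the comparisons also carried signal. Both TK6 MNNG arrays lay at least 4-fold above both untreated arrays in 30 of 11777 probe sets without a gene symbol and in 13 of 1801 with several symbols, and at least 4-fold below in 5 and 2.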

How the results depend on the processing

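Counts of called genes moved most with the choice of arrays and normalisation. With the 22 arrays kept in 464 genes were called in TK6 (323 up and 141 down, all of these at least 1.5-fold) and 126 differences from MT1 (86 up, 40 down), the MYC difference turned to 1.05, and 12 of 24 named differences lost their call; the cause was not tested, but the median standard error was 0.42 in place of 0.146. With the TK6 and MT1 arrays alone 2131 differences were called (1088 up, 1043 down), with 3 residual degrees of freedom. On values as deposited 3623 genes were called in TK6 with 1428 down, 1294 differences (552 up, 742 down), 1606 genes lay below every panel line, and the median of direct reversal and base excision repair was 0.047. With median-centring 1682 differences were called (530 down) and 1823 genes lay above every panel line. The causes were not tested. The B-cell median was -0.022 without MNNG replicate 2 and 0.29 without MNNG replicate 1. Leaving out 1 TK6 array gave 4794 to 4983 genes called in TK6 and 2892 to 3115 differences. With the replicate block 5387 genes were called, and with the crossed block, added after seeing the data, 5577; whether numbers pair the arrays is unknown. The block ended the calls of MSH6 (adjusted p = 0.0624), GNLY, COL1A2 and the CCNE1 difference, and MPG and PLK1 passed with it. The other settings gave 4551 to 5976 calls in TK6. Genes near the bottom of the scale have only bounds.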
